A study of Mus musculus with 15 samples.

Results

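The subunits of the oxidative phosphorylation machinery, and the factors that assemble its first complex, were followed across 5 groups of mouse submandibular glands. Members were taken by symbol. They were the 13 protein-coding genes of the mitochondrial genome, Sdha to Sdhd, and the protein-coding genes starting with Ndufa, Ndufb, Ndufc, Ndufs, Ndufv, Uqcr, Cox4, Cox5, Cox6, Cox7, Cox8 or Atp5. Most encode subunits of complexes I to V, and the Ndufaf genes among them encode complex I assembly factors. Each was also assigned to a complex by its symbol alone. This gave 106 of the 39179 genes in the files, of which 93 are nuclear and 8 of those are assembly factors. A filter on low counts kept 101 of the members (12 mitochondrial and 89 nuclear) among 14300 genes tested.

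The glands came from adult male C57BL/6 mice of wild type genotype. One group was left untreated (NT), and another was taken 7 days after irradiation of the gland (IR). The remaining groups were irradiated, sampled at the same time and given a gene by transfer into the gland. That gene was green fluorescent protein in IR+GFP, the Hedgehog transcription factor Gli1 in IR+Gli1, and Shh, the ligand that starts Hedgehog signalling, in IR+Shh. All groups but NT share the irradiation, and IR+GFP is the control for the transfer itself.

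Oxidative phosphorylation makes most of a resting cell's ATP in the inner membrane of mitochondria. Complexes I (NADH dehydrogenase) and II (succinate dehydrogenase) pass electrons to ubiquinone, complex III passes them to cytochrome c, complex IV (cytochrome c oxidase) passes them to oxygen, and complex V (ATP synthase) makes ATP from the proton gradient built by I, III and IV. Complex II is wholly nuclear-encoded, whereas the others combine nuclear subunits with a core made inside the mitochondrion from its own genome, which is transcribed from both strands into long RNAs that are then processed. In salivary glands the striated duct cells are packed with mitochondria and drive ion transport.

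There were 15 libraries with 18205941 to 41064723 gene reads each. In every group the reads of 1 pair of libraries differed by less than the noise of sampling (mean chi-square per gene 0.215 to 0.337, against 22.03 to 223 in the other pairs), and each such pair was counted as 1 sample, named for example NT 2/3, so n = 2 samples per group. No label says that samples came from separate animals, and a p-value here speaks only of how far these particular samples spread, which may be technical. Reads with several alignments, which the authors did not count, were 8.22% in IR+GFP 3 and 7.53% in IR+Gli1 3 and 2.89% to 4.79% elsewhere, and NT 2/3 alone held large amounts of sublingual gland RNA (summed markers 17601 CPM, which are reads relative to library size, against 5.01 in NT 1). Shh had 0 reads in all libraries, which allows at most 0.0731 to 0.165 CPM per library, and Gli1 was at 0.540 and 0.672 CPM in the libraries labelled IR+Gli1 against 0.768 and 0.554 in IR+GFP and 2.69 and 4.24 in IR+Shh, after the TMM scaling explained below. As CPM of all gene reads, without further scaling, Gli1 was at 0.878 to 0.962 in the 3 libraries labelled IR+Gli1 and 0.424 to 0.747 in NT, IR and IR+GFP. Whether Gli1 reads were raised in the group named for it thus depends on the scaling, and directions below are those of the libraries labelled IR+Gli1. These are bulk samples, in which fewer cells of a type and less RNA per cell cannot be told apart.

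The mitochondrial members were among the most abundant RNAs of the gland. Their level was set beside each other as CPM per kilobase of exon, averaged over the 10 samples. The 3 core subunits of complex IV led, with mt-Co1 at 5254, mt-Co2 at 4448 and mt-Co3 at 4438. They were followed by mt-Atp6, the proton channel of complex V, at 4211 and mt-Cytb, the core of complex III, at 3371. The complex I core genes were lower, from mt-Nd1 at 2201 and mt-Nd4 at 1867 through mt-Nd2 at 1441 and mt-Nd3 at 1165 to mt-Nd5 at 904 and mt-Nd6, the only protein gene read from the opposite strand, at 879.

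The lowest of those with reads was mt-Atp8, a small subunit of the ATP synthase membrane part, at 555 CPM per kilobase, and mt-Nd4l, a small complex I core subunit, had 0 reads in all 15 libraries. Both sequences are shown because each runs into a neighbouring gene, which bears on how reads were assigned; the mouse mitochondrial sequences are those of the GENCODE vM21 transcripts on GRCm38, read 5′ to 3′ on the plus strand. Capitals mark the bases shared with the next gene, which are 43 of the 204 bases of mt-Atp8 (chrM:7766-7969, shared with mt-Atp6) and 7 of the 297 bases of mt-Nd4l (chrM:9877-10173, shared with mt-Nd4).
mt-Atp8: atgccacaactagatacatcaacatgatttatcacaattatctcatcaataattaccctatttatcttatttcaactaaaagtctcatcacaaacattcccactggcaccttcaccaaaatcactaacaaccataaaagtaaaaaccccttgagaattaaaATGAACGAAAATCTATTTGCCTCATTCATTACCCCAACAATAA
mt-Nd4l: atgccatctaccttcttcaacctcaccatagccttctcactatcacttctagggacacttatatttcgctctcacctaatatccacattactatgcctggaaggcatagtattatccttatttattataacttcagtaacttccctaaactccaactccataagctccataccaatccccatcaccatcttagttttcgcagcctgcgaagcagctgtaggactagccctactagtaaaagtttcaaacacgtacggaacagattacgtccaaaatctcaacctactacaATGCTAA
Only 161 bases of mt-Atp8 belong to it alone. A nuclear gene model on chromosome 1, Gm10222, is identical to mt-Nd4l over 294 of its 297 bases and itself had 24 reads in the 15 libraries; whether this copy set the 0 reads of mt-Nd4l was not tested. Gm13340 on chromosome 2, which matches mt-Co1 at 97.6% over 1545 bases, had 385 reads against 3262853 for mt-Co1 itself, or 0.0118%. Copies matching part of mt-Co2 (Gm13341), mt-Nd5 (Gm4076) and mt-Nd2 (Gm13339) had 82, 2 and 1 reads. Reads of the other near-identical copies in the annotation, among them identical stretches of mt-Atp6, mt-Co2, mt-Co3 and mt-Nd4, were not analysed here. The genes mt-Nd5 and mt-Nd6 share 14 bases on opposite strands. The levels are those of reads aligned to 1 place.

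Per-sample levels of the mitochondrial members are given as CPM scaled by TMM, a factor that lines up the bulk of genes between samples. For mt-Co3, the third of the core complex IV genes, the values were 3833 and 3629 in NT and 3798 and 4032 in IR. They were 4180 and 3551 in IR+GFP, 3916 and 3598 in IR+Shh, and 1945 and 2310 in the libraries labelled IR+Gli1. For mt-Nd3, a small complex I core subunit, they were 519 and 460 in NT, 390 and 421 in IR, 482 and 401 in IR+GFP, 433 and 374 in IR+Shh, and 298 and 276 in IR+Gli1. In both genes the IR+Gli1 samples were the lowest of the 10 and overlapped no other group.

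Of the 10 other mitochondrial members with reads, 5 (mt-Nd2, mt-Nd4, mt-Cytb, mt-Co1 and mt-Atp6) also had both IR+Gli1 samples lowest, and 5 did not. For mt-Co1 the values were 8507 and 6300 in NT, 9007 and 9376 in IR, 9878 and 9080 in IR+GFP, 9734 and 8663 in IR+Shh and 4335 and 6296 in IR+Gli1. The higher IR+Gli1 sample was thus beside NT 2/3, the sample with sublingual RNA. For mt-Nd5, a proton-pumping subunit of complex I, IR+Gli1 1/2 had 669 and IR+Gli1 3 had 1193, against 1784 and 1101 in NT, 1841 and 1983 in IR, 2311 and 1950 in IR+GFP and 1926 and 1725 in IR+Shh. Here IR+Gli1 3 exceeded NT 2/3, and only IR+Gli1 1/2 lay below all samples of the other groups.

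The smallest gene, mt-Atp8, was also the least even. Its values were 209 and 95.1 in NT, 83.9 and 127 in IR, 216 and 114 in IR+GFP, 78.5 and 87.6 in IR+Shh and 81.2 and 40.1 in IR+Gli1. The NT samples differed more than 2-fold between themselves, and the IR+Shh values stood among the lowest together with those of IR+Gli1.

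**Figure D1:**
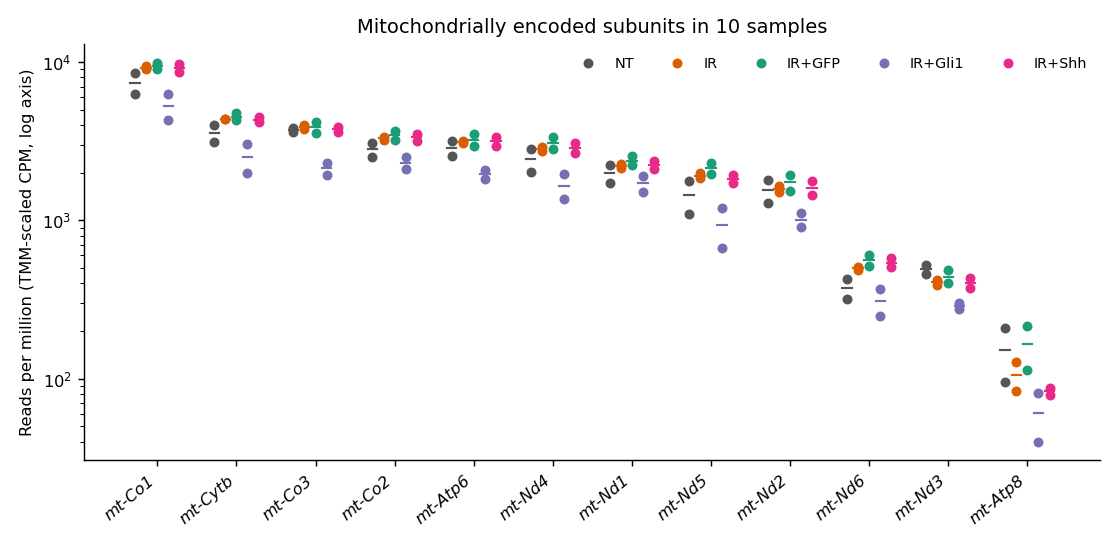
Level of each of the 12 mitochondrial members with reads (vertical log axis, TMM-scaled CPM) in the 10 samples, ordered by group; each point is 1 sample and each bar the mean of a group. Both IR+Gli1 points lie below all others for 7 of the 12 genes with TMM scaling, for example mt-Co3 at 1945 and 2310 against 3551 to 4180 elsewhere, an order that does not hold with total-count scaling (3336 and 3021 against 3143 to 3687).

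How these levels read depends on the scaling, since a few secretory genes take a large share of all reads in this gland. The 25 most abundant genes took 62.9% of gene reads in IR+GFP and 39.2% in IR+Gli1, with Mucl2, a secreted mucin-like gene, alone at 27.4% and 15.1%. As a plain share of all gene reads, the mitochondrial members held 2.28% to 3.34% in every library, and the libraries labelled IR+Gli1 lay inside that range. The nuclear members held 0.686% to 0.878% in the 12 other libraries and 1.39%, 1.39% and 1.14% in IR+Gli1. So as a share of reads the nuclear set stood high and the mitochondrial set level, and relative to most other genes the nuclear set stood level and the mitochondrial set low.

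The ratio of mitochondrial to nuclear member reads needs no scaling. It was 3.47 ± 0.663 in NT, 4.07 ± 0.106 in IR, 4.16 ± 0.369 in IR+GFP, 2.40 ± 0.366 in IR+Gli1 and 3.81 ± 0.350 in IR+Shh (mean ± SD, n = 2 each). The lowest value outside IR+Gli1 was 3.002 in NT 2/3, above the 2.14 and 2.66 of the IR+Gli1 samples. IR+Gli1 was 1.74-fold lower than IR+GFP, with an exact two-sided permutation p = 0.333, which is the smallest that 2 samples against 2 allow. The same p was the smallest possible in each of the 7 comparisons, so no ratio could pass at 0.05.

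**Figure D2:**
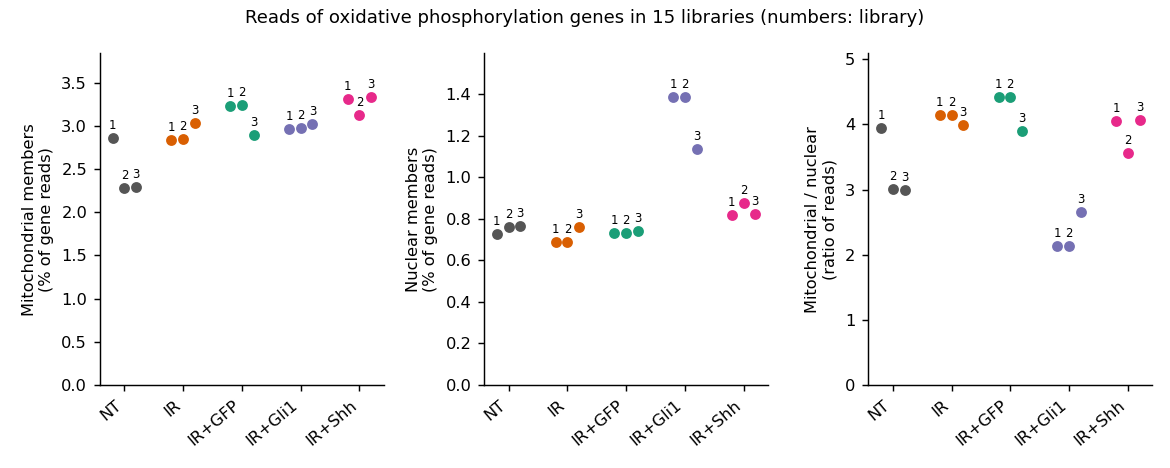
Share of gene reads taken by mitochondrial members, by nuclear members, and their ratio (vertical axes, percent of gene reads and ratio) in each of the 15 libraries, by group. Mitochondrial shares lie between 2.28% and 3.34% throughout, nuclear shares are highest in the 3 IR+Gli1 libraries (1.14% to 1.39%), and the ratio there is 2.14 to 2.66 against 2.998 to 4.43 elsewhere.

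The contrast of the libraries labelled IR+Gli1 with IR+GFP separates the gene from the transfer. In it, 9 of the 12 mitochondrial members tested fell and none rose. Across all genes tested 13.9% passed, with 5.71% of all genes lower and 8.23% of all genes higher. Tests here are edgeR's quasi-likelihood tests with Benjamini-Hochberg adjustment over all 14300 genes at 0.05, on the TMM scale. In complex I, mt-Nd3 fell by 0.62 ± 0.14 on the log2 scale (SE, adjusted p = 0.0206), and mt-Nd5 fell by 1.19 ± 0.30 (adjusted p = 0.0288). In complex IV, mt-Co3 fell by 0.86 ± 0.17 (adjusted p = 0.0111) and mt-Co1 by 0.83 ± 0.23 (adjusted p = 0.0402). The complex III gene mt-Cytb and the complex V gene mt-Atp6 also fell, as did mt-Nd2, mt-Nd4 and mt-Nd6, with adjusted p from 0.0255 to 0.0367.

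The members that did not pass were mt-Co2 (log2 difference -0.57, adjusted p = 0.0589), mt-Nd1 (-0.48, adjusted p = 0.119) and mt-Atp8 (-1.44 ± 0.54, adjusted p = 0.134). In all 12 genes both IR+Gli1 samples lay below both IR+GFP samples, which held for 27.3% of all genes. The median difference of the 12 was -0.84, against 0.01 over all genes. Set library beside library, it was -1.15 for IR+Gli1 1/2 over IR+GFP 1/2 and -0.52 for IR+Gli1 3 over IR+GFP 3, so the 2 IR+Gli1 samples differed in how far they stood from the control.

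The count of 9 rests on the pooled spread of all groups and on TMM. With total-count scaling no mitochondrial member passed and the median was -0.08, while the median over all genes became 0.78. Of the 9, mt-Nd3 (0.18) and mt-Atp6 (0.051) changed sign. The genes mt-Nd1 and mt-Co2, not among the 9, also became higher. As CPM of all gene reads, mt-Nd1 had 2594 and 2495 in IR+Gli1 against 2193 and 1976 in IR+GFP, and mt-Co2 3634 and 3291 against 3166 and 2861. A fit of the 2 groups alone called none on TMM. Deviations from group means correlated in the 3 same-numbered library pairs of these 2 groups (r 0.498 to 0.537), of which libraries 1 and 2 are near-identical. With library 3 as a block in a fit of these groups alone, 1 mitochondrial member passed, which was not among the 9, and the median was -0.87. The 9 became 0 without IR+GFP 1/2, 1 without IR+Gli1 1/2, 2 without IR+GFP 3, IR 1/2 or IR 3, 3 without IR+Shh 1/3 and 4 without IR+Shh 2, and the median stayed between -1.01 and -0.65 over all samples left out in turn.

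The mitochondrial genes did not keep their proportions. Within the mitochondrial reads, mt-Nd1, the first protein gene of the long heavy-strand RNA, took 8.74% and 8.26% in IR+Gli1 against 6.57% to 6.91% in the other 8 samples. The share of mt-Co2 was 12.2% and 10.9% against 9.57% to 10.04%. That of mt-Nd5 was 3.87% and 5.17%, against 4.38% to 6.18%, and overlapped the other groups, while mt-Co1 held 25.05% to 27.8% in every sample. These shares do not depend on the scaling between samples.

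Marker sums of some other cell types differed in the same samples, and those of others overlapped. Acinar cell markers (9 genes) overlapped, at 13300 and 45548 CPM in IR+Gli1 against 33235 and 55411 in IR+GFP. Fibroblast markers (6 genes) also did, at 147 and 196 against 162 and 214. Summed markers of granular convoluted tubules, the hormone-secreting ducts of male rodents, were 28604 and 55698 CPM in IR+Gli1 against 147550 and 129659 in IR+GFP. In that list Egf had 6390 and 18711 against 54207 and 50266, whereas Klk1, at 2344 and 3659 against 4141 and 3254, overlapped. Summed monocyte and neutrophil markers (7 genes) were 179 and 49.7 CPM against 3.41 and 6.77, T and NK cell markers (7 genes) 77.1 and 29.8 against 1.88 and 4.92, and macrophage markers (8 genes) 236 and 235 against 77.3 and 111. Markers of striated and excretory ducts and ionocytes (9 genes), the mitochondria-rich part of the gland, were 634 and 585 CPM against 477 and 522. None of these lists had a gene at 0 in all samples, and their part in the mitochondrial differences was not tested.

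Setting IR+Shh against the libraries labelled IR+Gli1 gave 3 mitochondrial members higher and none lower, where 7.76% of all genes passed and 2.76% were higher. They were mt-Co3 (log2 difference 0.82, adjusted p = 0.0233), mt-Atp6 (0.70, adjusted p = 0.0438) and mt-Nd6 (0.81, adjusted p = 0.0473). In 11 of the 12 genes both IR+Shh samples exceeded both IR+Gli1 samples, as they did in 28.8% of all genes; mt-Atp8 was the exception. The median was 0.74, and 0.12 with total-count scaling, under which none passed. No mitochondrial member passed without IR 1/2, IR 3, IR+Gli1 1/2, IR+Shh 1/3 or IR+Shh 2 or in a fit of these groups alone, 1 passed without either IR+GFP sample, 5 without either NT sample, and 9 without IR+Gli1 3.

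Against untreated glands, 3 mitochondrial members were lower in the libraries labelled IR+Gli1 and none higher, where 23.7% of all genes passed and 11.4% were lower. mt-Nd3 fell by 0.77 on the log2 scale (adjusted p = 0.00528), mt-Co3 by 0.81 (adjusted p = 0.00839) and mt-Atp6 by 0.55 (adjusted p = 0.0478). In 8 of 12 genes the samples did not overlap, against 28.4% of all genes in that direction, and the median was -0.55, or -0.30 without NT 1 and -0.29 without IR+Gli1 1/2. With total-count scaling 3 mitochondrial members were instead higher, the median was 0.19 and mt-Atp6 was at 0.19. Under that scaling 64.7% of all genes were higher, with a median of 0.77, so the mitochondrial members stood below the bulk of genes there too. The count was 2 without NT 1, either IR sample, either IR+GFP sample, IR+Gli1 1/2 or either IR+Shh sample, 8 without IR+Gli1 3 and 4 without NT 2/3, and a fit of the 2 groups alone called none.

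Irradiation by itself, the control transfer and Shh against its control or against NT left no mitochondrial or nuclear member past the threshold. The share of all genes that passed was 0.678% for IR against NT, 0.0% for IR+GFP against IR, 0.0% for IR+Shh against IR+GFP and 2.26% for IR+Shh against NT. DESeq2 and limma-voom also called 0 members in these 4 comparisons. At an unadjusted p under 0.05 there were 0 mitochondrial and 6 nuclear members for IR against NT, 0 and 0 for IR+GFP against IR, 0 and 2 for IR+Shh against IR+GFP, and 1 and 12 for IR+Shh against NT. The share of all genes under that unadjusted p is not given here, so these counts have no background beside them. The mitochondrial medians were 0.19, 0.12, -0.08 and 0.21 in the same order. Single samples moved them: the medians against NT were 0.012 without NT 2/3 and stood at 0.37 and 0.39 without NT 1, and IR+Shh against NT was 0.11 without IR+Shh 1/3. IR+GFP against IR was -0.018 without IR+GFP 1/2, 0.22 without IR+GFP 3 and 0.070 without IR 1/2. IR+Shh against IR+GFP was 0.023 without IR+GFP 1/2, 0.0077 without IR+Shh 2, -0.17 without IR+GFP 3 and -0.17 without IR+Shh 1/3.

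The nuclear members were evener across samples than most genes. The highest of the 10 samples was 1.27 times the lowest in the median nuclear member, against 1.75 times in the median gene tested, and 2.21 times in the median mitochondrial member. Of the 89, 73 (82.0%) stayed within 1.5-fold over all samples, as did 30.7% of all genes and 0 of the 12 mitochondrial members. Nuclear members are more abundant than most genes (median level 65.1 against 10.1 CPM), a level at which counts are more precise. Among genes with a mean of at least 20 CPM, 92.0% of 75 nuclear members and 51.5% of 4810 genes stayed within 1.5-fold.

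This evenness is on the TMM scale, and with total-count scaling the median nuclear member spanned 2.23-fold, the median gene 2.54-fold and the median mitochondrial member 1.58-fold. The smallest spread of a nuclear member was in Ndufs4, an accessory subunit near the NADH-binding arm of complex I, with a coefficient of variation of 3.40% (chosen after its values were seen). For IR+Gli1 against IR+GFP the 95% interval of the difference lay within 0.5 on the log2 scale in 82.0% of the nuclear members and 28.04% of all genes, and for IR against NT in 83.1% and 32.1%. These intervals bound the change of most nuclear members, on the TMM scale, to less than 1.5-fold. The shares of all genes beside them are not matched for level, and nuclear members are more abundant than most genes.

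**Figure D3:**
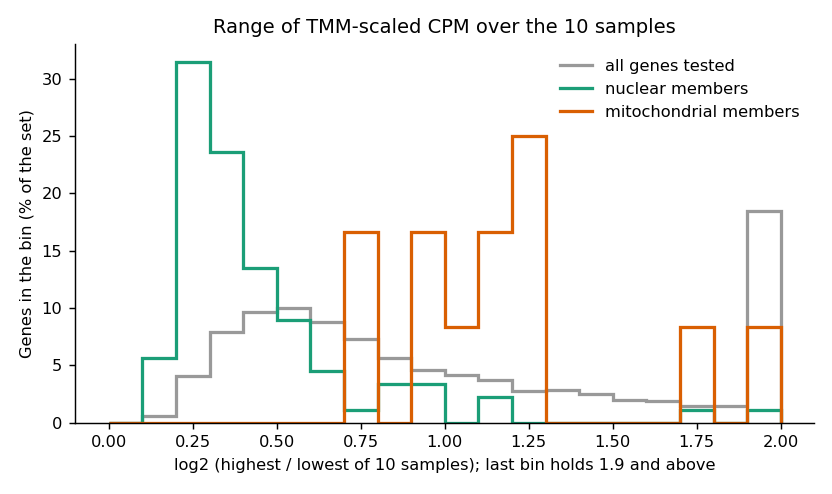
Distribution of the log2 ratio of the highest to the lowest of the 10 samples (horizontal axis, the last bin holds 1.9 and above; vertical axis, percent of genes) for nuclear members, mitochondrial members and all 14300 genes tested, TMM-scaled. Nuclear members gather at the low end, with a median ratio of 1.27, below the 1.75 of all genes and the 2.21 of mitochondrial members; with total-count scaling the medians are 2.23, 2.54 and 1.58.

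Assigned by symbol, and so with Ndufa4, which is found in complex IV, and its relative Ndufa4l2, complex I is the largest, with 38 nuclear members tested. Its most abundant subunits per kilobase were Ndufa1, a small membrane-arm subunit, at 157 CPM per kilobase and Ndufb9, another membrane-arm subunit, at 113. Ndufb9 ranged from 105 to 125 CPM over all samples, and its difference between IR+Gli1 and IR+GFP was -0.06 ± 0.10 on the log2 scale. Of the 38, 1 fell and none rose in that comparison, with a median of 0.07. In IR against NT the median was -0.07, with 26 below 0 and none passing.

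All 4 subunits of complex II were measured and none passed in any comparison with TMM scaling in edgeR (1 at an unadjusted p under 0.05 in IR+Gli1 against IR+GFP, 1 in IR+Shh against IR+Gli1). Sdhd, the membrane anchor with the highest level per kilobase, ranged from 80.0 to 112.5 CPM, and Sdha, the flavoprotein that oxidises succinate, from 190 to 239. Sdhd was at 104 ± 12.6 CPM in IR+Gli1 and 82.7 ± 0.538 in IR+GFP (SD, n = 2), a log2 difference of 0.32 ± 0.11 with adjusted p = 0.0740. Sdha differed by -0.17 ± 0.12 between the same groups.

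In complex III none of 8 nuclear members passed in any comparison with TMM scaling in edgeR (1 at an unadjusted p under 0.05, in IR+Gli1 against IR+GFP). Uqcr10 and Uqcr11, small subunits with the highest levels per kilobase, ranged from 67.8 to 90.1 and from 63.3 to 75.3 CPM. Uqcr10 had the lowest adjusted p of this pair, 0.0597, for IR+Gli1 against IR+GFP (0.30 ± 0.09 on the log2 scale), and Uqcr11 differed by -0.11 ± 0.10.

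Complex V had 17 nuclear members tested, and none passed in any comparison with TMM scaling in edgeR, where at most 2, in IR+Gli1 against NT, had an unadjusted p under 0.05. Its catalytic β and α subunits, Atp5b and Atp5a1, had the highest CPM of the nuclear members, not divided by exon length. Atp5b ranged from 954 to 1181 CPM and Atp5a1 from 697 to 831. Atp5b had 1098 and 1043 in NT, 1056 and 1137 in IR, 1126 and 1099 in IR+GFP, 954 and 1107 in IR+Gli1 and 1163 and 1181 in IR+Shh, so the IR+Gli1 samples overlapped the others. As CPM of all gene reads, without TMM, the same gene had 1637 and 1447 in IR+Gli1 against 918 to 1174 elsewhere.

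Complex IV had 14 of its 18 nuclear members tested, and for IR+Shh against NT 14 of 14 fitted differences were above 0, with a median of 0.19 against -0.00 over all genes, and none passed (6 at an unadjusted p under 0.05). Samples of these groups overlapped in Cox8a, Cox5a and Cox7a1, and no share of all genes without overlap is given for this comparison. The 25% and 75% quantiles of all genes were -0.22 and 0.24. In the same comparison the medians of complexes I, II, III and V were 0.03, 0.03, -0.02 and 0.09, so complex IV was the highest of several looked at. For IR+Gli1 against NT the median was 0.17 and 3 of 14 rose, where 12.3% of all genes were higher. Cox8a and Cox6a1, small structural subunits, led per kilobase. Cox6a1 ranged from 129 to 171 CPM with a difference of -0.02 ± 0.12 between IR+Gli1 and IR+GFP. Cox8a had 122 and 201 CPM in the NT samples alone, so its groups could not be set apart.

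**Figure D4:**
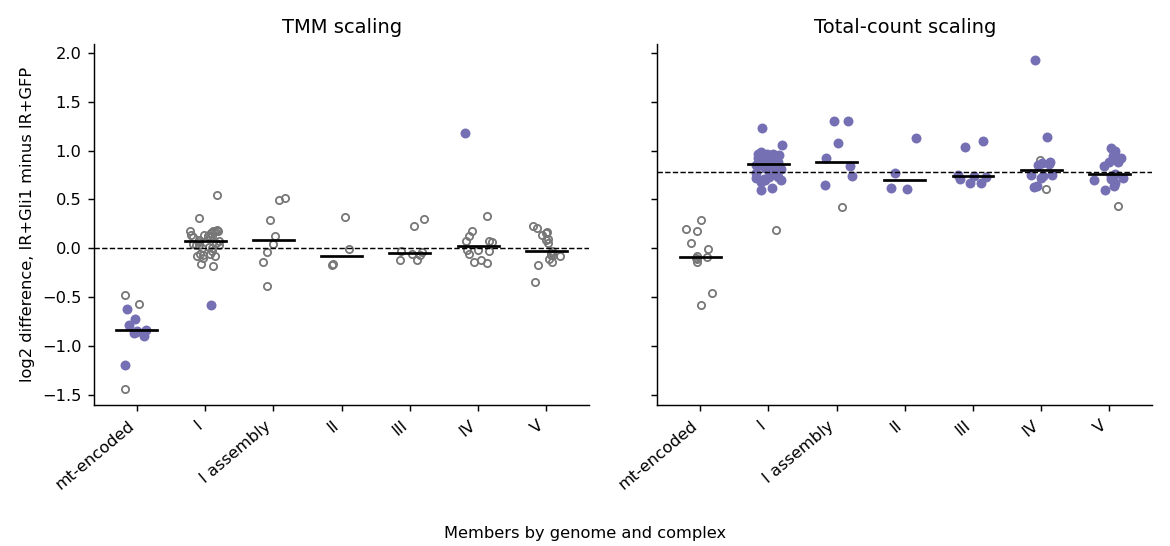
Log2 difference of IR+Gli1 from IR+GFP (vertical axis) for each tested member by complex and genome, with TMM scaling at left and total-count scaling at right; filled points have adjusted p under 0.05, bars are medians and the dashed line is the median of all genes. With TMM the mitochondrial genes lie low (median -0.84) and the nuclear ones near 0 (0.04); with total counts the nuclear ones lie high (0.82, all genes 0.78) and the mitochondrial ones near 0 (-0.08).

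Only 2 of the 89 nuclear members tested passed between IR+Gli1 and IR+GFP, 1 in each direction, beside the 13.9% of all genes, and the median was 0.04. Under total-count scaling 84 nuclear members were higher and none lower, with 68.2% of all genes passing and 67.6% higher. In IR+Shh against IR+Gli1 1 of 89 rose, and against NT the libraries labelled IR+Gli1 had 4 higher (12.3% of all genes) and 2 lower (11.4%). With total counts these became 77 lower (56.6% of all genes passing, 56.0% lower) and 83 higher (66.3% passing, 64.7% higher).

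Ndufa1 was the nuclear member whose change stood with the mitochondrial genes. It had 67.6 and 74.3 CPM in NT, 72.1 and 73.8 in IR, 72.5 and 67.7 in IR+GFP, 65.0 and 72.1 in IR+Shh, and 42.0 and 51.9 in IR+Gli1. The IR+Gli1 samples were below all 8 others, which spanned less than 10 CPM. On the TMM scale it fell by 0.58 ± 0.12 against IR+GFP (adjusted p = 0.0134) and by 0.60 against NT (adjusted p = 0.00698), and IR+Shh exceeded IR+Gli1 by 0.55 ± 0.12 (adjusted p = 0.0276), whereas with total counts these differences were 0.19, 0.14 and -0.075. The first call was lost without IR+GFP 1/2 or IR+Gli1 1/2, and the third without IR 1/2, IR 3, IR+Gli1 1/2 or either IR+Shh sample.

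Cox7a2l, a relative of a complex IV subunit, had the opposite sign. It was at 75.8 and 93.6 CPM in NT, 107 and 102 in IR, 105 and 107 in IR+GFP, 99.1 and 112 in IR+Shh and 145 and 121 in IR+Gli1. The IR+Gli1 samples were the highest and the NT samples the lowest of the 10. It rose by 0.65 ± 0.13 on the log2 scale from NT to IR+Gli1 (adjusted p = 0.00818), and its difference from IR+GFP, 0.33 ± 0.13, did not pass (adjusted p = 0.134). The sign was the same with total counts, where the 2 differences were 1.42 and 1.13.

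Ndufa6, an accessory complex I subunit that binds the acyl carrier protein, also rose from NT to IR+Gli1, by 0.39 ± 0.10 (adjusted p = 0.0241). Its values were 52.6 and 57.4 CPM in NT, 75.4 and 68.8 in IR+Gli1, and 55.4 to 65.0 in the other groups, so it too was highest in the libraries labelled IR+Gli1. With total counts the difference was 1.154, and the TMM call was lost without NT 1 or without IR+Gli1 1/2.

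The assembly factor Ndufaf4, needed early in complex I assembly, fell by 0.55 ± 0.18 from NT to IR+Gli1 on the TMM scale (adjusted p = 0.0486), but stood at 0.23 with total counts. NT had 26.1 and 18.7 CPM, IR+Gli1 17.0 and 13.5, IR 14.4 and 16.5, IR+GFP 21.1 and 18.9 and IR+Shh 18.1 and 15.9. All irradiated groups thus had a mean below NT, and IR itself differed from NT by -0.54 ± 0.18 without passing (adjusted p = 0.178). The Ndufaf4 call, close to the threshold, was lost without NT 1, IR 1/2, IR 3, IR+GFP 1/2, IR+GFP 3, IR+Gli1 3, IR+Shh 1/3 or IR+Shh 2.

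The 8 assembly factors had a median difference from NT of -0.30 in IR (7 of 8 below 0), -0.26 in IR+Shh (6 of 8 below 0) and -0.15 in IR+Gli1 (6 of 8 below 0). None passed in IR or IR+Shh, each with 2 at an unadjusted p under 0.05, and 1, Ndufaf4, passed in IR+Gli1. Ndufaf3, another early assembly factor, differed by -0.45 ± 0.13 between IR+Shh and NT (adjusted p = 0.110). Their levels per kilobase were far under those of the subunits: Ndufaf8 led at 8.43 CPM per kilobase, against 157 for Ndufa1. Over all genes the median differences from NT in IR, IR+Shh and IR+Gli1 were -0.02, -0.00 and 0.03. Low medians in IR were also seen in lists described below. Protein import had -0.27 (19 of 19 below 0) and mitochondrial ribosomal proteins -0.21 (70 of 76). Chaperones, proteases and stress genes had -0.17 (11 of 15), glycolysis -0.15 (12 of 18) and other assembly factors -0.14 (31 of 35). Electron carriers had -0.09 (13 of 16), and the remaining lists below 0 lay from -0.07 to -0.01. Medians above 0 were those of carriers and channels (0.10), regulators (0.04) and mitochondrial DNA replication (0.03). For IR+GFP against IR, Ndufaf4 (0.38) and Ndufab1 (0.28), the mitochondrial acyl carrier protein, had the smallest p of the nuclear members, both with an adjusted p of 1.00.

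**Figure D5:**
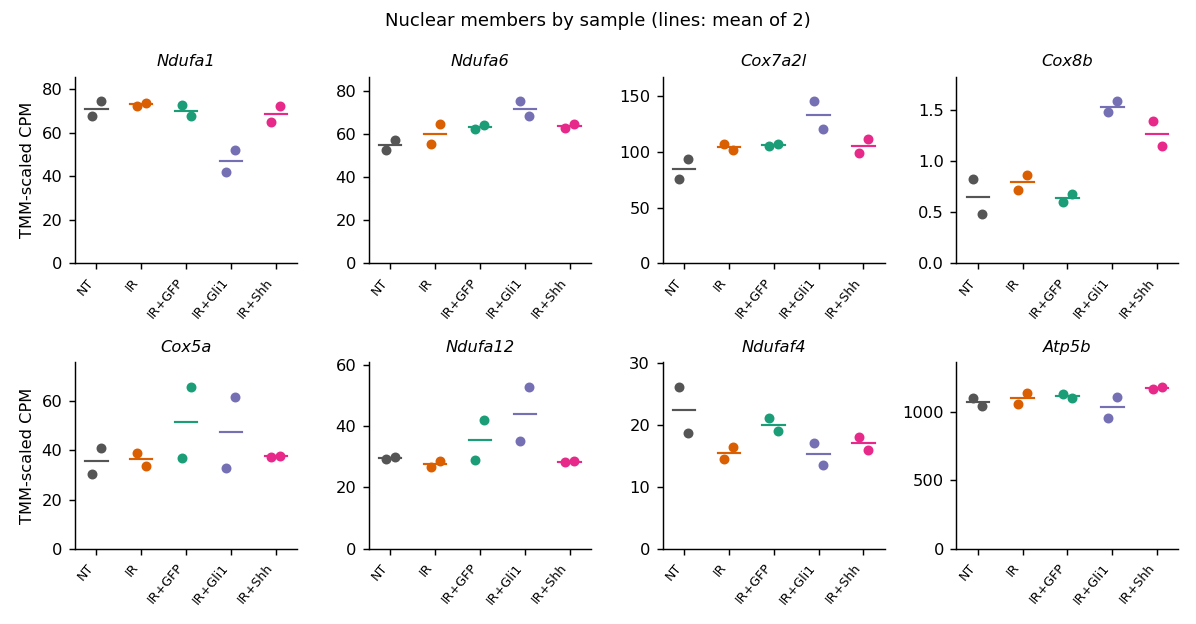
Level of 8 nuclear members (vertical axes, TMM-scaled CPM) in the 10 samples by group; points are samples and bars group means. Ndufa1 is low (42.0 and 51.9) and Cox7a2l and Ndufa6 high in IR+Gli1 with TMM scaling, while with total counts Ndufa1 there is 72.1 and 67.8 against 59.6 to 71.7 elsewhere; Cox5a and Ndufa12 are high in IR+GFP 3 and IR+Gli1 3, and Atp5b lies between 954 and 1181 throughout.

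Several subunits exist as general and tissue-restricted forms, and the general forms were the abundant ones here. Cox8b, the heart and skeletal muscle form of subunit VIII, was at 0.477 to 1.58 CPM, beside 122 to 222 for the general Cox8a. It had 0.819 and 0.477 in NT, 0.714 and 0.865 in IR, 0.597 and 0.677 in IR+GFP, 1.48 and 1.58 in IR+Gli1 and 1.39 and 1.14 in IR+Shh, so both the Gli1 and the Shh groups stood above the rest. Cox8b rose by 1.18 ± 0.33 from IR+GFP to IR+Gli1 (adjusted p = 0.0442) and by 1.14 ± 0.32 from NT (adjusted p = 0.0292). IR+Shh differed from IR+GFP by 0.92 ± 0.34 without passing (adjusted p = 0.808).

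The Cox8b call against IR+GFP was lost without any 1 sample of IR, IR+GFP, IR+Gli1 or IR+Shh and in DESeq2 and limma-voom. The call against NT was lost without NT 2/3 or without any 1 sample of IR, IR+Gli1 or IR+Shh. Summed skeletal muscle markers (8 genes, of which Myh4 was at 0 in all samples) were at 2.34 to 6.21 CPM, with 6.21 and 4.54 in IR+Gli1 and 3.37 and 3.08 in IR+GFP; their part in the Cox8b values was not tested.

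Cox6b2, the testis form of subunit VIb, was lower still. It had 0.212 and 0.257 CPM in NT, 0.544 and 0.811 in IR, 0.597 and 0.554 in IR+GFP, 0.684 and 0.632 in IR+Gli1 and 0.607 and 0.442 in IR+Shh, so every irradiated sample exceeded both NT samples. It rose by 1.26 ± 0.36 from NT to IR+Gli1 (adjusted p = 0.0309), and the difference of IR from NT, 1.28 ± 0.37, had the smallest p of the nuclear members there without passing (adjusted p = 0.140). The call was lost without any 1 sample other than IR+GFP 3, and in DESeq2. Its general counterpart Cox6b1 was at 129 to 155 CPM.

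Cox7a1, the heart and muscle form of subunit VIIa, was at 5.33 to 7.11 CPM beside 111 to 128 for Cox7a2, the general form. Ndufa4l2, a hypoxia-induced relative of Ndufa4, was at 0.426 to 0.974 CPM beside 90.4 to 111 for Ndufa4, which is named for complex I but is found in complex IV. Neither form passed in any comparison. The forms that the filter removed had few reads over the 15 libraries: the lung and hypoxia form Cox4i2 had 39 and the muscle form Cox6a2 had 41, while the testis forms Cox8c and Cox7b2 had 5 and 0. Their general counterparts Cox4i1 (191 to 234 CPM), Cox6a1, Cox8a and Cox7b (127 to 166 CPM) were all well measured.

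Cox5a, a nuclear subunit that binds the matrix side of complex IV, did not follow the groups. It had 30.2 and 40.9 CPM in NT, 38.9 and 33.8 in IR, 36.9 and 65.9 in IR+GFP, 32.9 and 61.7 in IR+Gli1 and 37.2 and 37.9 in IR+Shh. The high values were IR+GFP 3 and IR+Gli1 3, the libraries with most reads of several alignments, at 1.72 times the median of the 8 others. No comparison of Cox5a passed, with 0.49 ± 0.36 for IR+GFP against IR and -0.12 ± 0.35 for IR+Gli1 against IR+GFP.

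Ndufa12, an accessory subunit of complex I, had the same high samples (41.9 in IR+GFP 3 and 52.8 in IR+Gli1 3 against 26.7 to 35.2 elsewhere, chosen after its values were seen). In all, these 2 samples lay above the other 8 in 10 of the 89 nuclear members tested (11.2%), against 7.34% of all genes, and in 0 of the 12 mitochondrial ones. They lay below the other 8 in 1 nuclear member (1.12%) against 3.54% of all genes. Without both libraries, a setting chosen after seeing the data, 9 mitochondrial members and 1 nuclear one were lower in IR+Gli1 than in IR+GFP and none higher.

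Promoters were examined because nuclear subunit genes share regulators: NRF1 and GABP (also called NRF2) bind many of them, and YY1 binds others. RefSeq windows on GRCm38.p6, from 250 bases before to 50 after a gene's start, were found for 74 of the 93 nuclear members, in 79 windows. Motifs were searched on both strands. The NRF1 palindrome, GCATGCGC preceded by GC, was in 8.86% of member windows (7 members) against 0.971% of all 32851 windows, the GABP motif CCGGAAG in 22.8% (18 members) against 8.86%, and the YY1 motif AAGATGGC in 12.7% (10 members) against 2.75%. GCATGCGC without the preceding GC, which overlaps the palindrome, was in 15.2% against 2.71%.

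Shown are the windows of Cox6a1 (chr5:115348909-115349208, minus strand) and Atp5k (chr5:108434350-108434649, minus strand), the members with both NRF1 and GABP motifs, and of Ndufa1 (chrX:37191189-37191488, minus strand), the nuclear member that changed with the mitochondrial genes. They run 5′ to 3′ along the gene, and capitals mark the NRF1 motif and the GABP motif, the latter as its reverse complement CTTCCGG.
Cox6a1: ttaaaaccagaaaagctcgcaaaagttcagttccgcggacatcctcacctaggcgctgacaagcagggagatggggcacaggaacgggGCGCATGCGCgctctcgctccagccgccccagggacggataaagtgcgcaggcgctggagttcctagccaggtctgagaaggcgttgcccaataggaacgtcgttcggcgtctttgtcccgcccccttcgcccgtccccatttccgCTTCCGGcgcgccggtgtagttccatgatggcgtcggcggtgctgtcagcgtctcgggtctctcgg
Atp5k: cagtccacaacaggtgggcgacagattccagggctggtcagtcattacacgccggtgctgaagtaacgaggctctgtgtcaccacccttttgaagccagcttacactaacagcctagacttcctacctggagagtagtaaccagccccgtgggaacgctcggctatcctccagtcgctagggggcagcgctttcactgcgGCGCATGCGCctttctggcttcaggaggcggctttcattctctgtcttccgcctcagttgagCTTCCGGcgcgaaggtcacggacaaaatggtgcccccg
Ndufa1: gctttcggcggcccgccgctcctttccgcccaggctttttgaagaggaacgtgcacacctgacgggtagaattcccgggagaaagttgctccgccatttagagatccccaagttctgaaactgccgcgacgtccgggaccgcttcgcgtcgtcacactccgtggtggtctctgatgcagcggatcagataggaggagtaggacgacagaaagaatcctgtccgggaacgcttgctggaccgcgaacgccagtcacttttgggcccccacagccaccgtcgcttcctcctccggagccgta
The Ndufa1 window held none of the searched letters. This does not set it apart, since each motif was absent from most member windows. Those of Atp5b, Sdha, Ndufv1 and Cox7c, among others, also held none. A motif is a description of these letters and not a measured binding site.

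Genes around the machinery were compared on the TMM scale, that is, relative to the bulk of genes. In IR+Gli1 against IR+GFP 8.23% of all genes were higher and 5.71% lower, and against NT 12.3% and 11.4%. In IR+Shh against IR+Gli1 7.76% of all genes passed and 2.76% of all genes were higher, and in IR+Shh against NT 2.26% passed. The counts per list below belong beside these shares, and no list was tested against them. With total-count scaling the median of all genes shifts to 0.78 for IR+Gli1 against IR+GFP, 0.77 against NT and -0.66 for IR+Shh against IR+Gli1, so differences below that are smaller than this shift can change sign there.

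Regulators of the programme gave mixed values. Of 11 tested, 1 rose and 1 fell between IR+GFP and IR+Gli1: Ppargc1a, the coactivator of mitochondrial biogenesis, rose by 0.63 ± 0.17 (adjusted p = 0.0371), and Esrrg, an estrogen-related receptor that acts on oxidative genes, fell by 0.81 ± 0.22 (adjusted p = 0.0394). Against NT, 2 rose and 3 fell in IR+Gli1: Ppargc1a was at 37.6 against 12.9 CPM, up by 1.53 ± 0.17 (adjusted p = 0.000777), Tfeb rose by 0.71, and Esrrg, Pprc1 and Gabpa fell. Gabpa, which encodes the DNA-binding part of GABP, fell by 0.49, and 701 bases of it overlap Atp5j on the opposite strand, so without a stated strand mode the reads of the pair cannot be told apart there. In IR+Shh, Ppargc1a was at 24.8 CPM, above NT by 0.93 ± 0.17 (adjusted p = 0.0321), the only one of the 11 to pass there.

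Of 24 genes that transcribe and process mitochondrial RNA, 0 passed in edgeR between IR+GFP and IR+Gli1 (4 at an unadjusted p under 0.05, median -0.04). Against NT, 3 of the 24 fell in IR+Gli1, where 11.4% of all genes were lower. They were Grsf1, an RNA granule protein, by 0.44, Trmt10c, a subunit of the mitochondrial RNase P, by 0.66, and Tfb1m, an rRNA methyltransferase, by 0.74. None of 10 genes of mitochondrial DNA replication passed in any comparison (1 at an unadjusted p under 0.05 for IR+Gli1 against IR+GFP, 2 against NT).

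In the citric acid cycle and pyruvate dehydrogenase, 2 of 17 fell in IR+Gli1 against IR+GFP: Pdha1, a catalytic subunit of pyruvate dehydrogenase, by 0.49, and Suclg1, of succinyl-CoA ligase, by 0.37. Pdha1 was higher in IR+Shh than in IR+Gli1 by 0.50, and Pdhb fell by 0.33 and Pdha1 by 0.41 from NT to IR+Gli1. Of 16 electron carriers and other electron entry genes, 1 changed in any comparison, Coq3 of ubiquinone synthesis, which fell by 0.49 from NT. Among 35 assembly factors outside the members, 2 fell from NT to IR+Gli1, Higd1a by 0.61 and Ttc19 by 0.38, where 11.4% of all genes were lower.

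Among 15 carriers and channels of the mitochondrial membranes, Ucp3, an uncoupling protein relative, rose most. It was at 9.60 CPM in IR+Gli1, 3.64 in IR+GFP and 1.81 in NT, with log2 differences of 1.40 ± 0.37 (adjusted p = 0.0375) and 2.35 ± 0.38 (adjusted p = 0.00344), and was lower in IR+Shh than in IR+Gli1 by 1.70. Slc25a20, the carnitine carrier, rose by 0.58 from NT, and Slc25a4, an ADP and ATP exchanger, fell by 0.49. Vdac3, an outer membrane channel, rose by 0.36 from NT and fell by 0.48 from IR+Gli1 to IR+Shh.

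Of 19 protein import genes, 2 fell from NT to IR+Gli1, Timm17b by 0.62 and Timm23 by 0.35, where 11.4% of all genes were lower. Timm23 also fell by 0.55 from NT to IR+Shh, where it was the only one. Timm22 was lower in IR+Shh than in IR+Gli1 by 0.41. Among 15 chaperones, proteases and stress genes, Atf4, the transcription factor of the integrated stress response, fell by 0.76 and Yme1l1, an inner membrane protease, by 0.39 between IR+GFP and IR+Gli1, and 4 fell from NT, with Atf4 at 78.0 against 164 CPM. Of 8 antioxidants Glrx5 rose by 0.56 and Prdx3 fell by 0.35 from NT, and of 10 mitophagy and dynamics genes Fundc1 and Opa1 fell, by 0.40 and 0.39.

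Glycolysis, the other route to ATP, had 1 of 18 higher and 3 lower in IR+Gli1 against IR+GFP. Pfkp rose by 0.56, while Hk2, Pfkm and Pgk1 fell by 0.71, 0.75 and 0.36. Against NT, 2 rose and 7 fell in IR+Gli1, with Pgk1 falling by 0.78, Hk2 by 0.80 and Pgam1 by 0.64, and in IR+Shh 3 fell, Ldha by 0.66, Pgk1 by 0.52 and Pgam1 by 0.52. Hk1 was lower in IR+Shh than in IR+Gli1 by 0.42.

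Ribosomal proteins of the cytosol and of mitochondria were counted in the same way, and the difference between these lists was not tested. Of 79 cytosolic ones, 19 rose and 1 fell in IR+Gli1 against IR+GFP, where 8.23% of all genes were higher, with a median of 0.38 against 0.01 over all genes; Rps19 rose by 0.72, Rps20 by 0.76 and Rpl22 by 0.62. In IR+Shh against IR+Gli1 1 was higher and 5 lower, and against NT 27 rose and 1 fell in IR+Gli1, where 12.3% of all genes were higher. Of 76 mitochondrial ribosomal proteins, 1 rose against IR+GFP (Mrps9, by 0.62), 2 were lower in IR+Shh than in IR+Gli1 (Mrpl45 and Mrpl19, both by 0.58), and 3 rose and 1 fell against NT. In IR against NT and IR+GFP against IR no gene of these lists passed.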

How the data were processed

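RNA of the 15 libraries was measured as raw counts of reads per Ensembl gene, as the authors deposited them. Per the submitters' processing notes, reads were handled with TopHat2 2.0.13, Bowtie 0.12.2, DESeq2 and HTSeq 0.10.0 on mm10 and GRCm38; strand mode and annotation release are not given in the sources used here. Per the labels' protocols, libraries came from a TruSeq RNA kit with 1 ug of total RNA. Symbols from GENCODE vM21 matched 96.2% of genes.

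Near-identical libraries were averaged and rounded (10 samples). Genes were filtered with filterByExpr, scaled with TMM and fitted over all groups in edgeR 4.0.16 (R 4.3.3; robust quasi-likelihood, 5 residual degrees of freedom, biological coefficient of variation 0.191, prior count 2, two-sided, threshold 0.05). A separate fit of 15 libraries had been planned and became an alternative. Other settings used DESeq2 1.42.0, limma 3.58.1, other scalings and filters, and left-out samples; the scripts were tested on simulated data. A floor of 3 reads bounds a count of 0 and covers counting error only. A second Ensembl identifier of Atp5o was not analysed here.

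Members and lists were chosen with earlier results of these data known. Named genes were all mitochondrial members, Cox5a, the 2 most abundant nuclear subunits per kilobase in each complex, up to 6 passing nuclear members in each direction (else the 2 of smallest p), tissue-restricted forms with their counterparts, and up to 3 passing genes per list.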

Additional observations from a re-analysis of the deposited data

How the results depend on the processing

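The numbers of members that passed are given in the order IR against NT, IR+GFP against IR, IR+Gli1 against IR+GFP, IR+Shh against IR+GFP, IR+Shh against IR+Gli1, IR+Gli1 against NT and IR+Shh against NT, where the reported fit gave 0, 0, 11, 0, 4, 9 and 0. Without a filter on low counts they were 2, 2, 12, 2, 12, 14 and 1. In a fit of the 15 separate libraries, which counts near-identical libraries as replicates, they were 22, 0, 37, 1, 34, 37 and 23, and with the replicate number as a block there 15, 0, 36, 1, 34, 33 and 21. Same-numbered libraries were not taken as pairs, since only 3 of the 30 pairs had deviations correlated above 0.1, all of IR+GFP with IR+Gli1 and not independent of each other, and the best partner of a library had its own number in 6 of 15 cases. With total-count scaling IR+Gli1 against IR+GFP gave 84, IR+Shh against IR+Gli1 77 and IR+Gli1 against NT 86, and fits of the compared groups alone gave 0, 0 and 0. A replicate block pairing IR+GFP 3 with IR+Gli1 3 in a fit of those 2 groups, chosen after seeing the data, gave 1. DESeq2 gave 12 for IR+Shh against IR+Gli1, and leaving out IR+GFP 3 and IR+Gli1 3 gave 8. Over samples left out 1 at a time the count was 0 to 14 for IR+Gli1 against IR+GFP, 0 to 10 for IR+Shh against IR+Gli1, 5 to 12 for IR+Gli1 against NT and 0 in the other 4.

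Among the members that passed, signs reversed only with total-count scaling: Ndufa1 at 0.19 against IR+GFP, 0.14 against NT and -0.075 for IR+Shh against IR+Gli1, mt-Atp6 at 0.051 and 0.19, mt-Nd3 at 0.18 and Ndufaf4 at 0.23. The member calls were counted again in each setting, so the totals are pairs of a call and a setting. Under the other settings, 227 such pairs kept direction and threshold and 47 lost the threshold. Fits of the compared groups alone lost all 24 calls. The fits of 15 separate libraries, with and without the block, kept all 24. These settings share data, so the totals are not independent. Many calls were also lost with samples left out. The cause of the reversals and losses was not tested. DESeq2 size factors, upper-quartile scaling (added later) and scaling by nuclear genes alone left every member count within 1.5 times. Cox8b and Cox6b2 stayed under 2 CPM, where few reads and 2 samples per group limit what can be detected.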
